A study of Equus caballus with 2 samples.

Results

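Fibronectin and the integrin chains that form its receptors were followed in single equine endometrial fibroblasts with and without TGF-β1. The members were 10 gene symbols (FN1, ITGA4, ITGA5, ITGA8, ITGAV, ITGB1, ITGB3, ITGB5, ITGB6 and ITGB8), looked up in the gene lists of both libraries. Of these, 9 were found among the 21426 genes listed. ITGAV was not matched by its symbol, 5196 genes carried an Ensembl identifier alone, and ITGAV was therefore not analysed here.

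The cells were cultured fibroblasts isolated from the endometrium of 4 mares and grown on hydrogels coated with rat tail collagen type I, in medium in which BSA had replaced serum. Control cells received no supplement, and treated cells were given 10 ng/ml human recombinant TGF-β1 for 24 h. Within each treatment the cells of the 4 mares were pooled before loading, and each pool gave 1 droplet library, where a unique molecular identifier (UMI) lets each captured transcript be counted once. There was thus 1 library per treatment and no replicate, so no test was made, treatment and library preparation cannot be told apart, and each interval given below is a 95% interval of counting error only.

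Fibronectin is a large secreted glycoprotein that cells assemble into fibrils, and that matrix serves as a scaffold for collagen and for stored growth factors. Cells bind it through integrins, receptors made of 1 alpha and 1 beta chain, which link the matrix outside to the actin cytoskeleton inside. The alpha chains encoded by ITGA4, ITGA5 and ITGA8 pair with the beta chain encoded by ITGB1, while the alpha chain encoded by ITGAV pairs with any of the beta chains studied. In connective tissue, TGF-β is a classical inducer of fibronectin, and integrins that hold the ITGAV chain can in turn release TGF-β from its latent complex.

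Barcodes had to hold 20000 UMIs and 3500 genes or more, with less than 4% mitochondrial UMIs, which left 3865 of 4384 control barcodes and 4513 of 5124 TGF-β1 barcodes. The kept cells held 210497250 and 219731144 UMIs, with medians of 50313 and 43142 UMIs per cell. Of the kept barcode sequences, 2 occurred in both libraries. All 9 fibroblast markers were detected, with a summed level of 21714 counts per 1000000 UMIs (CPM) in the control and 21795 CPM in the TGF-β1 library. Within that sum, VIM (4399 and 2240 CPM), DCN (2098 and 1795 CPM) and THY1 (216 and 87.5 CPM) were lower after TGF-β1. PDGFRA (50.5 and 16.7 CPM) and PDGFRB (80.1 and 49.02 CPM) were lower as well. COL1A1, COL1A2 and COL3A1 were higher, and LUM (551 and 564 CPM) was nearly level. The endothelial list summed to 0.926 and 0.610 CPM, and the immune list to 52.6 and 55.04 CPM with PTPRC at 1 and 0 UMIs. The epithelial list summed to 134 CPM in the control and 12.3 CPM after TGF-β1, nearly all of it KRT8 (114 and 4.48 CPM) and KRT7 (19.3 and 7.04 CPM), while the defining epithelial markers EPCAM (1 and 3 UMIs) and CDH1 (6 and 4 UMIs) were close to 0. The muscle and pericyte list summed to 4356 and 5403 CPM, mostly ACTA2 (3608 and 4745 CPM). DES (646 and 569 CPM), MYH11 (42.9 and 25.3 CPM) and MCAM (5.78 and 1.75 CPM) were lower after TGF-β1. RGS5 (51.7 and 61.1 CPM) was higher, and CSPG4 (1.07 and 1.11 CPM) was nearly level.

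After TGF-β1 the ligand FN1 and most of its receptor chains were higher, and ITGA8 and ITGB8 were lower. For each gene, UMIs were added up over the kept cells of a library, and each log2 ratio sets TGF-β1 over control with no pseudocount added. Of the 8 members that averaged 10 CPM or more over the libraries, 6 were higher and 2 were lower. Of all 7658 genes with that mean level, 3939 were higher and 3719 were lower. More than 2-fold higher were 3 of the 8 (FN1, ITGB3 and ITGA5), against 2.3% of the 7658 genes with that mean level. More than 2-fold lower was 1 of the 8 (ITGB8), against 2.13% of all genes. With a limit of 1.5-fold, 4 members were higher and 2 were lower, against 6.19% and 6.48% of all genes. The median log2 ratio of the 8 members was 0.65, and that of all 7658 genes was 0.01 with a middle 50% from -0.19 to 0.20. ITGB3 and ITGB8 reached the 10 CPM mean through the library in which they were the higher, and ITGB6 did not reach it.

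**Figure D1:**
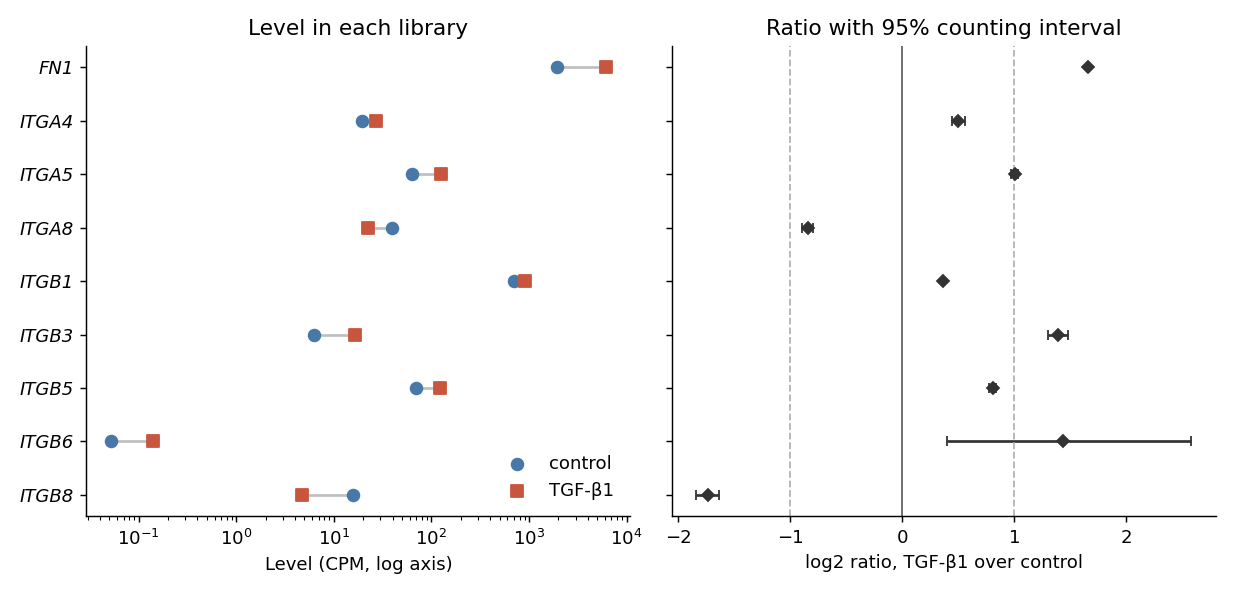
Left, level of each member in the control (circles) and TGF-β1 (squares) library in CPM on a log axis; right, log2 ratio of TGF-β1 over control with its 95% counting interval, with dashed lines at 2-fold. FN1 had the highest level of the 9 members in both libraries, ITGB6 lay under 1 CPM in both, and ITGA8 and ITGB8 were the members with a ratio under 0.

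FN1 (ENSECAG00000000701), the ligand, had 1934 CPM in the control and 6087 CPM in the TGF-β1 library. This was a log2 ratio of 1.65 (1.65 to 1.66). By level it ranked 96 among all genes of the control and 12 after TGF-β1, with 0.193% and 0.609% of all UMIs. For comparisons between cells, 20000 UMIs were drawn at random from every kept cell, which is called thinning here. FN1 was then detected in every cell of both libraries, with a lowest value of 3 UMIs in the control and 5 after TGF-β1.

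The median cell held 35 FN1 UMIs in the control and 114 after TGF-β1, at 20000 UMIs per cell. The range from the 5th to the 95th percentile was 15 to 68 UMIs in the control and 52 to 197 UMIs after TGF-β1, and the highest cells had 298 and 474 UMIs. The whole distribution lay higher after TGF-β1, with overlap at the edges. Of the TGF-β1 cells, 99.0% exceeded the control median and 86.9% exceeded the 95th percentile of the control. Over all pairs of a TGF-β1 and a control cell, the TGF-β1 cell held more FN1 in 97.0%. Tied pairs were split evenly between the libraries. The spread relative to the mean was smaller after TGF-β1 (coefficient of variation 0.48 in the control and 0.39 after TGF-β1), although the variance over the mean was larger (8.56 and 17.8). The 10% of cells with the most FN1 held 19.8% of the control FN1 UMIs and 17.5% of those after TGF-β1. FN1 was therefore not carried by a small set of cells in either library.

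**Figure D2:**
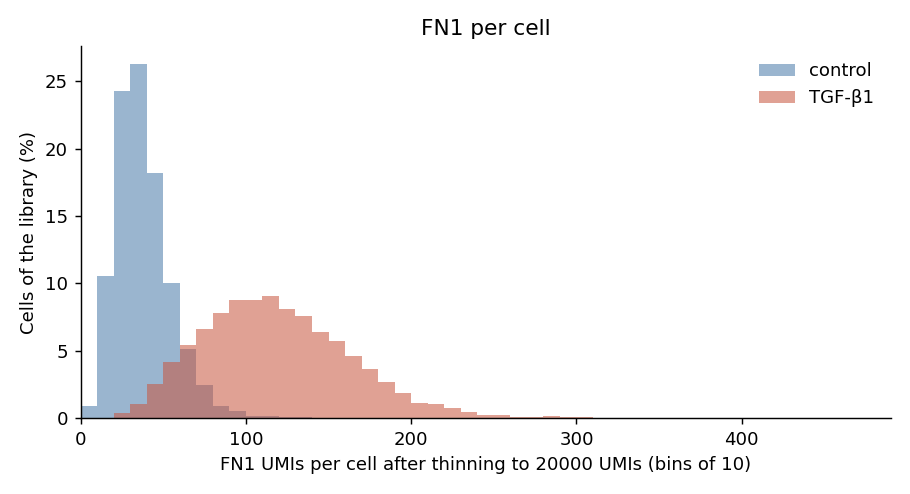
Share of the cells of each library (y axis, percent) by FN1 UMIs per cell after thinning to 20000 UMIs (x axis, bins of 10 UMIs), control in blue and TGF-β1 in red. The control cells centre on 35 UMIs and the TGF-β1 cells on 114 UMIs, each with a single broad peak.

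Among the alpha chains, ITGA5 and ITGA4 were higher after TGF-β1 and ITGA8 was lower. ITGA5 (ENSECAG00000024979) encodes the partner of ITGB1 in the classical fibronectin receptor, which recognises the RGD motif. Its level was 63.0 CPM in the control and 126 CPM after TGF-β1, and its log2 ratio was 1.00 (0.97 to 1.03). At 2.00-fold it stood on the limit of the count above and passed or missed it with the processing. In thinned cells it was detected in 66.2% of control cells (64.7% to 67.7%) and 86.5% of TGF-β1 cells (85.5% to 87.5%), and without thinning in 90.0% and 97.0%. No cell type that should lack these genes was present to show how much of such a share comes from free RNA in the droplets.

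ITGA4 (ENSECAG00000010500) encodes the chain that binds an alternatively spliced part of fibronectin and also VCAM1. It had 19.2 CPM in the control and 27.2 CPM after TGF-β1, with a ratio of 0.50 on the log2 scale (0.44 to 0.56). Thinned cells with ITGA4 made up 28.2% of the control and 35.8% of the TGF-β1 library, against 50.7% and 57.6% without thinning. Its ligand VCAM1 had 1473 UMIs in the control and 4 in the TGF-β1 library.

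ITGA8 (ENSECAG00000012863) encodes an RGD-binding partner of ITGB1 with several ligands besides fibronectin, among them nephronectin, tenascin-C and osteopontin. It had 39.7 CPM in the control and 22.2 CPM after TGF-β1, and the log2 ratio was -0.84 (-0.89 to -0.79). The share of thinned cells with ITGA8 was 40.0% in the control and 27.4% after TGF-β1, against 61.2% and 45.9% unthinned. Of these ligands, NPNT had 0.594 and 0.114 CPM, TNC had 132 and 389 CPM, and SPP1 had 2.91 and 11.6 CPM. The variance over mean of ITGA8 per thinned cell was 2.25 in the control at a mean of 0.751 UMIs, beside 2.19 for ITGB5 at a mean of 1.40 UMIs, 1.83 for ITGB8 at 0.307 and 1.28 for ITGA5 at 1.19.

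Among the beta chains, ITGB1 was the most abundant in both libraries, ITGB3 and ITGB5 were higher after TGF-β1, and ITGB8 was lower. ITGB1 (ENSECAG00000022498), the shared partner of the 3 alpha chains above, had 709 CPM in the control and 915 CPM after TGF-β1. Its log2 ratio of 0.37 (0.36 to 0.38) was the closest to 0 of the 8 members. ITGB1 was found in all but 1 of the thinned control cells and in every thinned TGF-β1 cell. The median cell held 13 UMIs in the control and 17 after TGF-β1, with 5th to 95th percentiles of 5 to 26 and 8 to 30.4, so the cells of the libraries overlapped widely. The TGF-β1 cell held more ITGB1 in 68.5% of pairs, with tied pairs split evenly, compared with 97.0% for FN1.

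ITGB5 (ENSECAG00000007589) encodes the beta chain of a vitronectin receptor. It had 69.7 CPM in the control and 122 CPM after TGF-β1, or 0.81 (0.78 to 0.84) as a log2 ratio. Detection in thinned cells was 63.4% in the control and 81.7% after TGF-β1 (86.4% and 94.0% unthinned). ITGB3 (ENSECAG00000017625) encodes the beta chain of the receptor shared by fibronectin, vitronectin and osteopontin. This gene was far less abundant, at 6.31 CPM in the control and 16.6 CPM after TGF-β1. The log2 ratio of ITGB3, 1.39 (1.30 to 1.48), was the highest after that of FN1 among the members of at least 10 CPM. It was detected in 10.4% of thinned control cells (9.46% to 11.4%) and 24.6% of thinned TGF-β1 cells (23.4% to 25.9%), and in 23.8% and 45.5% without thinning.

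ITGB8 (ENSECAG00000019215) encodes the beta chain of an integrin known for the activation of latent TGF-β. It had 15.8 CPM in the control and 4.74 CPM after TGF-β1, which was 3.33-fold lower (log2 ratio -1.73, -1.84 to -1.63). ITGB8 was detected in 21.4% of thinned control cells (20.2% to 22.8%) and 8.42% of thinned TGF-β1 cells (7.63% to 9.27%), against 40.4% and 17.6% unthinned. The highest thinned control cell held 12 ITGB8 UMIs and the highest TGF-β1 cell held 3. ITGB6 (ENSECAG00000021969), a beta chain that is mainly epithelial and also known for the activation of latent TGF-β, had 11 UMIs in all kept control cells and 31 in all kept TGF-β1 cells. Its log2 ratio was 1.43 with an interval from 0.40 to 2.57, at levels of 0.0523 and 0.141 CPM, and its share of thinned cells was 0.155% and 0.199%.

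The makeup of the measured receptor chains, ITGAV not among them, differed between the libraries on both the alpha and the beta side. UMIs are counted per transcript and not scaled by length, but capture can differ between genes, so the shares describe UMIs rather than protein. Of the UMIs of the 3 measured alpha chains, ITGA5 held 51.6% in the control and 71.9% after TGF-β1. ITGA8 held 32.6% and 12.6%, and ITGA4 held 15.8% and 15.5%. The 3 alpha chains together had 122 CPM in the control and 176 CPM after TGF-β1. On the beta side ITGB1 held 88.5% and 86.5% of the UMIs of the 5 measured chains. ITGB5 held 8.69% and 11.5%, ITGB3 held 0.788% and 1.56%, and ITGB8 held 1.97% and 0.448%. ITGB8 was thus the more abundant of ITGB3 and ITGB8 in the control and the less abundant after TGF-β1.

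The cells were then divided into 8 rebuilt clusters to see whether the differences held in each group of cells. The clusters had 105 to 886 control cells and 54 to 1216 TGF-β1 cells each. FN1, ITGA4, ITGA5, ITGB1, ITGB3 and ITGB5 were higher after TGF-β1 in 8 of 8 clusters, and ITGA8 and ITGB8 were lower in 8 of 8. The counting interval of the ratio included 0 for ITGA4 in cluster 5 and for ITGA8 in cluster 7, and lay on 1 side of 0 in all other cases. The integration that builds the clusters aligns the cells of the libraries, and 6 of the members were among the genes it used. With the members left out of those genes, the directions were the same in 8 of 8 clusters. Without integration, the direction was kept in 50% (ITGB3) to 75% (ITGA5) of the clusters that gave a ratio for ITGA4, ITGA5, ITGB1, ITGB3, ITGB5 and ITGB8, and in 100% for FN1 and ITGA8. Of those 9 clusters, 1 held 50 or more cells of both libraries, and all 8 members kept their direction in it.

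The ratios varied between clusters to different degrees. FN1 and ITGB1 were the most even, FN1 with log2 ratios of 1.34 to 1.73 and ITGB1 with 0.25 to 0.53, and FN1 exceeded 2-fold in all 8 clusters. ITGA5 ranged from 0.86 to 1.51 and ITGB5 from 0.57 to 1.30. ITGB3 ranged from 0.85 to 1.94, ITGA8 from -1.05 to -0.26, ITGA4 from 0.27 to 1.98 and ITGB8 from -3.04 to -1.11. The widest of these ranges came from the smallest cluster, number 7.

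**Figure D3:**
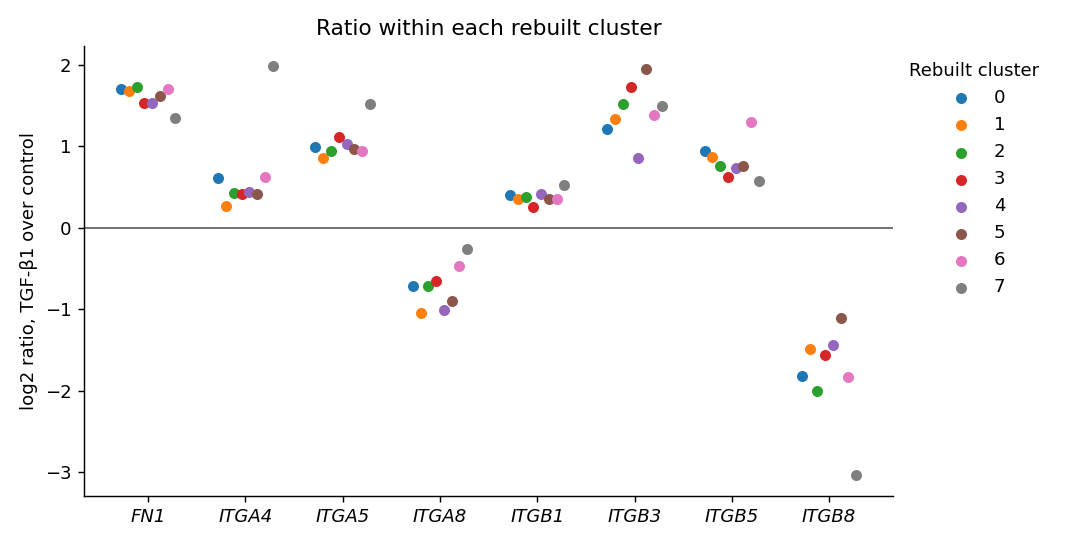
Log2 ratio of TGF-β1 over control (y axis) for each of the 8 members with at least 10 CPM (x axis) within the 8 rebuilt clusters, 1 point per cluster and colour. Points of 1 member lie on the same side of 0 in every cluster, and cluster 7 lies apart for ITGA4 and ITGB8.

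Levels also differed between the clusters of the control library, most for ITGA4, ITGA8 and ITGB8. Cluster 7, led by CA4, GDF15 and KRT1, had 105 control and 54 TGF-β1 cells. It held the highest ITGB5 (157 CPM in the control and 234 CPM after TGF-β1) and the highest control ITGB8 (37.2 CPM). Its ITGB8 after TGF-β1 was 4.53 CPM, from 12 UMIs, within the range of the other clusters. ITGA4 had its lowest control level there, 5.36 CPM from 30 UMIs, and 21.1 CPM after TGF-β1.

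Cluster 5, led by CFD, CRABP2 and C1R, was at the other end. It had the lowest FN1 in both libraries (1245 and 3822 CPM) as well as the lowest ITGB1 (416 and 531 CPM), ITGB5 (41.7 and 70.6 CPM), ITGA8 (11.4 and 6.14 CPM) and ITGB8 (5.98 and 2.78 CPM). Its cells also had the lowest median depth of the 8 clusters, 42134 and 33842 UMIs, and the highest median share of UMIs on ribosomal protein genes, 18.6% and 16.3%. The part of depth and of the ribosomal share in these low levels was not tested. ITGA8 was highest in cluster 3, led by SPP1, KRT7 and KRT8, with 58.1 CPM in the control and 36.8 CPM after TGF-β1. ITGB1 was highest in cluster 1 (859 and 1097 CPM), which also held the highest control ITGA5 (76.1 CPM). In cluster 6, the cycling-like cluster whose level of all 9 cycling markers exceeded that of the remaining cells by more than 2-fold, ITGB3 had 8.57 CPM in the control, from 84 UMIs, and 22.4 CPM after TGF-β1, close to the 8.42 and 21.3 CPM of cluster 1.

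Over all thinned cells of a library, the correlation with FN1 was highest for ITGB1 and ITGB5 among the chains, an order that did not hold in every alternative form of the correlation. Spearman's correlation over thinned cells was computed for each chain with FN1 and described beside that of 7657 other genes averaging 10 CPM or more. Cells are not replicates, so no p-value is given. For all genes the median correlation with FN1 was 0.02 in the control (n = 3865 cells) and 0.03 after TGF-β1 (n = 4513 cells), with 5th to 95th percentiles of -0.10 to 0.14 and -0.11 to 0.17. ITGB1 had 0.27 and 0.26, which placed it at percentiles 99.8 and 99.2 of all genes. ITGB5 had 0.15 in the control and 0.28 after TGF-β1, at percentiles 95.8 and 99.4. ITGB3 (0.13 and 0.14) and ITGA5 (0.10 and 0.13) lay inside the middle 90% of genes. ITGA4, ITGA8 and ITGB8 were between 0.01 and 0.08. All chains except ITGB1 were sparse, with a mean of 0.119 (ITGB3) to 1.40 (ITGB5) UMIs per thinned control cell among those of at least 10 CPM, and no relation is read from their weak correlations. ITGA8 in the control, at 0.08 and percentile 80.8, had 0.14 in a second random thinning, which moved no other member by more than 0.05.

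**Figure D4:**
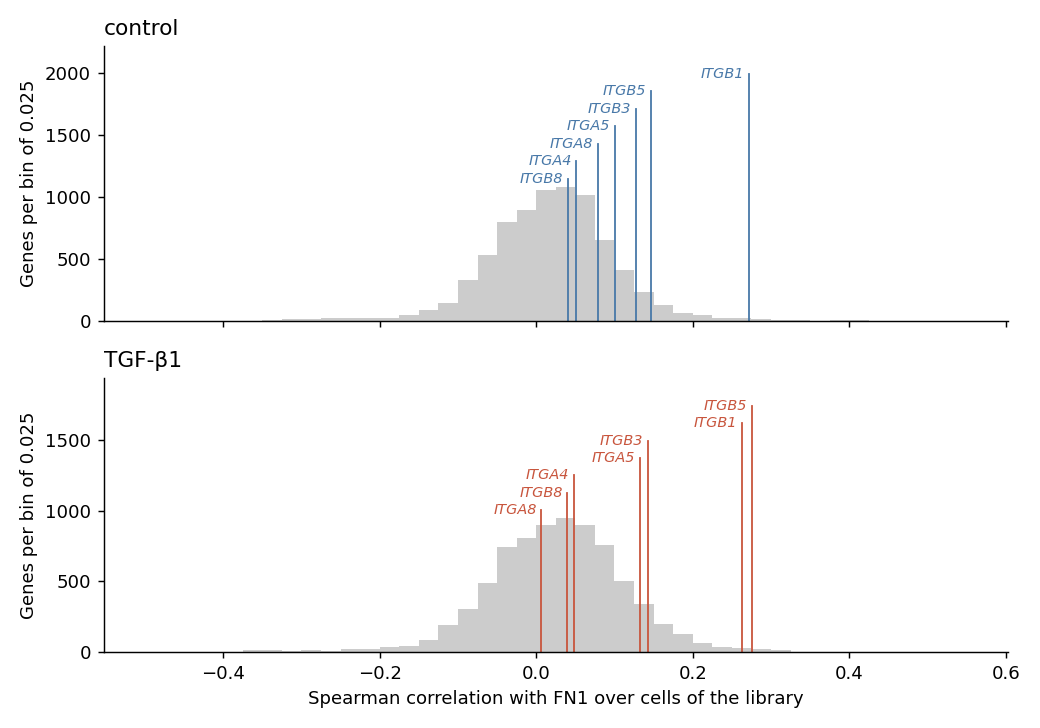
Number of genes (y axis) by Spearman correlation with FN1 over the thinned cells of a library (x axis, bins of 0.025), control above and TGF-β1 below, with the 7 integrin members of at least 10 CPM marked by lines. ITGB1 stands in the right tail in both libraries. ITGB5 lies at percentile 95.8 in the control and further out, at 99.4, in the TGF-β1 library.

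FN1 also moved with depth, cluster and ribosomal content. FN1 in thinned cells still correlated with the depth of the cell before thinning (0.22 in both libraries) and, inversely, with the share of UMIs on ribosomal protein genes (-0.37 in the control and -0.44 after TGF-β1). Given that share, the partial correlation of ITGB1 with FN1 was 0.13 and 0.09, that of ITGB5 was 0.07 and 0.19, that of ITGB3 was 0.09 and 0.09, and that of ITGA5 was 0.07 and 0.07. As a mean within clusters, ITGB1 had 0.19 and 0.13, ITGB5 had 0.11 and 0.20, ITGB3 had 0.12 and 0.14, and ITGA5 had 0.09 and 0.14. These means count each cluster equally, whatever its number of cells. In the control ITGB3 passed ITGB5 in both forms, by small margins. Within the TGF-β1 clusters ITGB3 (0.139), ITGA5 (0.135) and ITGB1 (0.133) were nearly level. Cluster 7, with 54 TGF-β1 cells, had 0.41 for ITGA5 and -0.17 for ITGB1, so no order is read from these means. ITGB5 was positive in 8 of 8 clusters of both libraries, as were ITGB3 and ITGA5, whereas ITGB1 was positive in 7 control and 6 TGF-β1 clusters. Between the chains themselves, correlations were weak. With ITGB1 they were 0.18 and 0.07 for ITGA8, 0.12 and 0.11 for ITGA4, 0.11 and 0.13 for ITGB3, 0.10 and 0.11 for ITGA5, 0.02 and 0.09 for ITGB5, and 0.01 and 0.02 for ITGB8.

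When the cells of each library were ordered by thinned FN1 and split into 5 groups of nearly equal size, ITGB3 differed most between the end groups among the 7 chains of at least 10 CPM. From the lowest to the highest group, mean FN1 went from 17.7 to 63.9 UMIs in the control and from 60.7 to 186 UMIs after TGF-β1. ITGB3 went from 2.65 to 9.80 CPM in the control (3.69-fold) and from 9.28 to 22.0 CPM after TGF-β1 (2.38-fold), with FN1 itself left out of the totals. ITGB5 was 1.68-fold and 1.98-fold higher in the highest group, and ITGB1 was 1.47-fold and 1.37-fold higher. All 3 increased at each step in both libraries. ITGA5 was 1.40-fold and 1.37-fold higher, ITGA8 1.59-fold and 1.17-fold, ITGB8 1.34-fold and 1.44-fold, and ITGA4 1.19-fold and 1.27-fold. No such folds of all genes are given beside these. ITGB3 was the sparsest of the 7 chains in the control, at 0.119 UMIs per thinned cell. Its correlation with FN1 was weak (0.13 and 0.14), so no particular link to FN1 is read from its folds. The ribosomal protein share went from 17.2% to 14.7% across the control groups and from 15.7% to 12.8% across the TGF-β1 groups, and the median depth from 45684 to 55273 and from 38677 to 45644 UMIs.

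**Figure D5:**
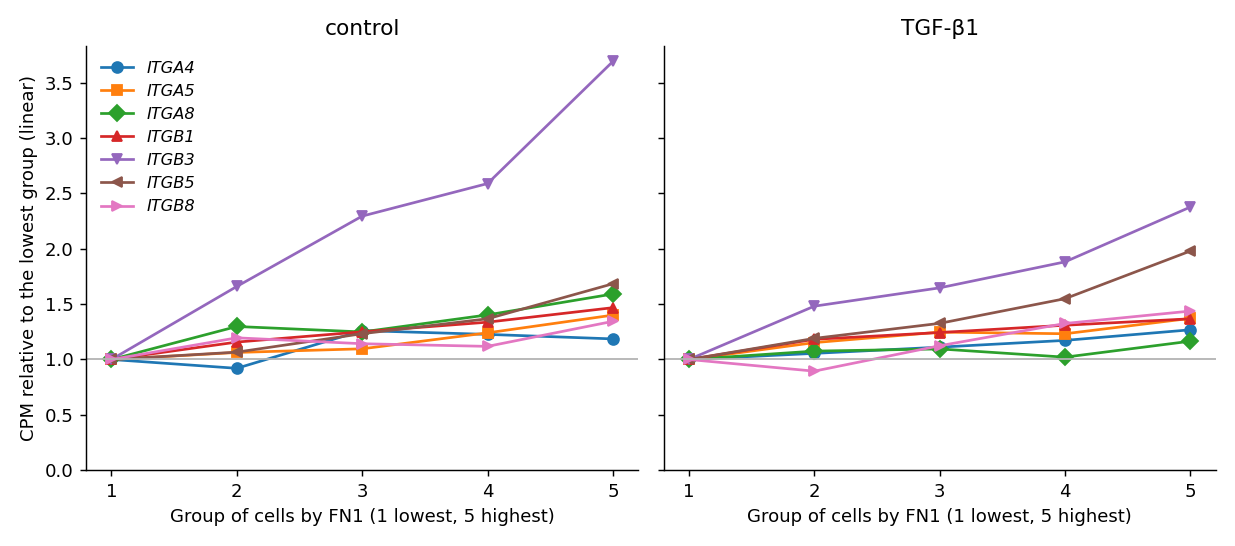
Level of 7 integrin chains in 5 groups of cells ordered by FN1 (x axis), relative to the lowest group (y axis, linear), in the control (left) and TGF-β1 (right) library. ITGB3 reaches 3.69 times its level in the lowest group in the control and 2.38 times after TGF-β1, above the other chains in both.

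The FN1 ranges of the libraries met at 52 to 68 UMIs per thinned cell, the 5th percentile of TGF-β1 cells and the 95th percentile of control cells. This range was chosen after the values were seen and held 476 control cells and 376 TGF-β1 cells, with mean FN1 of 58.3 and 60.7 UMIs. Among these cells of like FN1 level, ITGB1 had 788 and 747 CPM, a log2 ratio of -0.08 (-0.13 to -0.03), and ITGB5 had 86.1 and 89.2 CPM, a log2 ratio of 0.05 (-0.10 to 0.20). Between these cells of 1 library each, ITGA5 had 70.4 and 105 CPM (log2 ratio 0.58, 0.43 to 0.73), ITGA8 had 46.4 and 19.3 CPM (-1.26, -1.54 to -0.99), and ITGB8 had 18.4 and 5.20 CPM (-1.83, -2.37 to -1.32). ITGB3, from 72 and 76 UMIs, had a log2 ratio of 0.42 (-0.07 to 0.90), and ITGA4 had 0.18 (-0.12 to 0.48). These cells come from the upper end of the control and the lower end of the TGF-β1 library. Their median depths differed (55336 and 38540 UMIs), as did their ribosomal shares (15.2% and 16.0%). ITGB1, ITGB3 and ITGB5 rose with FN1 inside each library, so choosing cells by FN1 narrows their difference in advance. No link with FN1 is read from these ratios.

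The genes whose pattern over cells was most like that of FN1 were ranked over both libraries. Ordered by the mean of the correlations in the libraries, among 2631 genes with a symbol and at least 50 CPM in each library, the 10 highest were COL3A1 (0.40 in the control and 0.51 after TGF-β1), COL12A1, COL1A1, VCAN, FBN1, APBB2, RAI14, TNC, GLIS3 and COL1A2. COL1A1, COL1A2 and COL3A1 encode fibrillar collagens, VCAN a large proteoglycan, FBN1 the core of microfibrils and TNC a matricellular glycoprotein that binds fibronectin, while GLIS3 encodes a transcription factor. Of these 10 genes, TNC and COL12A1 were themselves more than 2-fold higher after TGF-β1 (log2 ratios 1.56 and 1.51). The 5 lowest were RPS12, EEF1A1, RPL6, RPL28 and RPL8, which encode ribosomal proteins and an elongation factor, with RPL8 at -0.33 and -0.43.

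Proteins that bind or organise fibronectin in the matrix formed the first of the lists set beside the members. Of 18 listed genes, 17 were found and 15 had a mean of at least 1 CPM, of which 9 were higher and 6 lower after TGF-β1, with a median log2 ratio of 0.37 (all 12116 genes with that mean, -0.01). More than 2-fold higher were TNC (132 and 389 CPM, log2 ratio 1.56) and LTBP1 (134 and 353 CPM, 1.40), which tethers latent TGF-β to the fibronectin matrix. SDC4 was the only 1 of the 14 that was more than 2-fold lower, against 2.13% of all genes. It encodes the syndecan that acts as a coreceptor with the ITGA5 and ITGB1 receptor. Its level was 34.8 CPM in the control and 12.1 CPM after TGF-β1 (log2 ratio -1.52, -1.59 to -1.46). ITGA5 and ITGB1 were thus higher after TGF-β1 and their coreceptor was lower.

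Among the other ligands of the member integrins, 10 of 14 found genes had at least 1 CPM, 8 higher and 2 lower, with a median log2 ratio of 0.36. For all genes with at least that mean the median was -0.01. Of the 7 with a mean of at least 10 CPM, only TNC, which both lists hold, was more than 2-fold higher, against 2.3% of all genes. Under that mean level, VCAM1 had the log2 ratio farthest from 0 of these 10 genes (-8.59, -10.46 to -7.23), and SPP1, which encodes osteopontin, had 1.99. MFGE8, whose RGD motif is bound by integrins with the ITGAV chain, had 282 and 359 CPM (log2 ratio 0.35). Of the latent TGF-β ligands and their anchors, 6 of 7 found genes had at least 1 CPM, 3 higher and 3 lower, with a median of -0.00. LTBP1 was higher (1.40), whereas LTBP3 (-0.71) and LTBP4 (-0.65) were lower, and of the ligands TGFB1 had 21.2 and 20.1 CPM (-0.08) and TGFB3 had 4.97 and 10.5 CPM (1.07).

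Inside the cell, the genes that link integrins to actin differed in both directions, with a median near that of all genes. Of 35 listed linkers, 34 were found and 32 had at least 1 CPM, of which 15 were higher and 17 lower, with a median log2 ratio of -0.02 against -0.01 for all 12116 genes with that mean. The core linkers talin (TLN1, 367 and 397 CPM), kindlin-2 (FERMT2, 907 and 890 CPM), integrin-linked kinase (ILK, 139 CPM in both) and vinculin (VCL, 301 and 297 CPM) differed by log2 ratios of 0.11, -0.03, 0.01 and -0.02. These 4 were named for their role after the values were seen. Of the 29 linkers with a mean of at least 10 CPM, only APBB1IP was beyond 2-fold (161 and 67.1 CPM, log2 ratio -1.26). More than 2-fold lower were 2.13% of all genes with that mean. APBB1IP encodes the adaptor that brings talin to integrins. DAB2, an endocytic adaptor of ITGB1, was near 2-fold lower (178 and 91.3 CPM, -0.96).

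The integrin chains outside the members were mixed. Of 17 chains, 10 had a mean of at least 1 CPM, 5 higher and 5 lower, with a median log2 ratio of 0.05. Of the partners of ITGB1 among them, ITGA1 had 149 and 220 CPM (0.56), ITGA3 had 37.5 and 21.7 CPM (-0.79), ITGA9 had 18.5 and 15.3 CPM (-0.28), ITGA11 had 9.66 and 9.63 CPM (-0.00) and ITGA6 had 2.44 and 2.61 CPM (0.10). ITGA2, a collagen receptor chain that also pairs with ITGB1, had the largest ratio of these 10 (2.73, 2.56 to 2.90) from 315 and 2178 UMIs. ITGAE (0.66), ITGAL (0.22), ITGAX (-0.29) and ITGA2B (-0.80) made up the rest. Among all ITGB1 partners measured here with a mean of at least 10 CPM, ITGA1, ITGA4 and ITGA5 were higher after TGF-β1 and ITGA3, ITGA8 and ITGA9 were lower.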

How the data were processed

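The authors deposited UMI counts per gene and barcode, made with Cell Ranger (7.1.0 in the methods, 8.0.1 in the file header) against EquCab3.0 with the Ensembl annotation. Whether intronic reads were counted is not given in the sources used here.

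The study's filters on UMIs, genes and mitochondrial share were applied. Its Souporcell removal of doublets and assignment of mares used reads and was not repeated, no doublet caller was run, and doublets may remain. Its edgeR test was not run. UMI counts of kept cells (210497250 and 219731144) were summed and scaled to CPM with pandas 2.3.3, scipy 1.17.1 and numpy 2.4.6 under Python 3.11.15, and plotted with matplotlib 3.10.9. Intervals are exact Clopper-Pearson at 95%. No ratio was given where both libraries had 3 or fewer UMIs. Cells were thinned to 20000 UMIs, the minimum of kept cells, so none was left out. Clusters were rebuilt in Seurat 5.3.0 (R 4.3.3; 2000 variable genes of the log-normalized counts, canonical correlation integration on 30 dimensions, resolution 0.5). Ratios and correlations were tested on simulated data.

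Members and lists were chosen with earlier results of these data known. The text names all members, list genes with at least 10 CPM beyond 2-fold (or the 3 largest ratios), other integrin chains with at least 1 CPM, and the 10 genes most and 5 least like FN1. VCAM1, NPNT, SPP1, MFGE8, TGFB1, TGFB3, LTBP3, LTBP4, DAB2 and 4 core linkers were named in addition, after their values were seen. The lists share genes. SDC3, PARVG, TGFB2 and MADCAM1 were not matched by symbol, and CD14, on more than 1 row, was left out of the markers. No genomic positions were used. The alternatives were other cell filters, removal of the deepest or cycling cells, other scalings, standardised cluster shares, other fold and CPM limits, other clusterings and other forms of the correlation. A partial correlation, and clusters restricted to 50 or more cells of both libraries, were added after seeing the data.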

Additional observations from a re-analysis of the deposited data

Results flagged for a closer look

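ITGB6 was nearly absent from the kept cells, but a single barcode that the filters exclude from the TGF-β1 library held 47 ITGB6 UMIs, against 31 in all kept TGF-β1 cells and 0 in the 519 excluded control barcodes. This was noticed because it lies in barcodes that the comparisons do not use. The barcode had 15316 UMIs in 3603 genes with 12.5% on mitochondrial genes, so it missed the depth and the mitochondrial limits. It held 15 UMIs of CDH1, which encodes the cadherin of epithelial junctions, of 19 CDH1 UMIs in the 611 excluded TGF-β1 barcodes, and 1 UMI each of EPCAM, KRT7 and KRT8. COL1A1 stood at 0 UMIs and VIM at 1 UMI, while FN1 had 56 UMIs. It is 1 barcode, and nothing else about its origin was tested.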

How the results depend on the processing

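No log2 ratio of a member changed sign in the 9 alternatives tried for each. The ratio of FN1 was 1.66 without cells above the 98th percentile of UMIs, 1.65 with a median-of-ratios size factor and 1.64 with standardised cluster shares. ITGA5 was at or below 2-fold in 4 of 9 alternatives, so that 2 members in place of 3 were more than 2-fold higher. At a 1.5-fold limit 2 members were lower in place of 1. ITGB6 moved from 1.43 to 2.80 with all deposited barcodes and to 0.87 as a mean of per-cell CPM. The median of the matrix partners was 0.38, 0.34, 0.36 and 0.38 without the deepest cells, as a mean of per-cell CPM, with standardised shares and at a minimum of 10 CPM. At that minimum the latent TGF-β list had -0.37 (4 genes), the other ligands 0.37 (7 genes) and the other integrin chains 0.14 (4 genes). The other integrin chains had -0.001 without the deepest cells, -0.03 without cycling cells and -0.05 with standardised shares. The latent TGF-β median also changed sign, with -0.02 without cycling cells and 0.03 with standardised shares. The direction of these medians is therefore not settled. Over the alternatives, the correlation with FN1 ranged from 0.13 to 0.32 in the control and 0.09 to 0.30 after TGF-β1 for ITGB1, and from 0.07 to 0.19 and 0.19 to 0.33 for ITGB5. No paired analysis was possible because each treatment was 1 library, the labels give no replicate numbers, and the assignment of cells to mares from reads was not repeated here. Differences between mares, cultures or library preparations are not in any interval, and ITGB6 rests on 11 and 31 UMIs.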
